A study of Mus musculus with 12 samples.

Results

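The 10 genes described here encode transcription factors of the cerebellar granule neuron lineage: Atoh1, Barhl1, Barhl2, Pax6, Neurod1, Neurod2, Mycn, Etv1, Insm1 and Nhlh1. They were chosen by symbol, and all of them were found among the 24421 genes of the deposited table. The test covered the 15464 genes whose normalized read count reached 10 or more in 3 or more libraries, and all 10 factors were among them. RNA was sequenced from cells of the mouse cerebellum that carried green fluorescent protein (GFP), sorted from untreated Aldh1l1-GFP mice on postnatal day 1 (P1), day 7 (P7), day 14 (P14) or day 28 (P28), with 3 libraries at each age and 12 in all. All 4 groups shared the genotype, and the mice, of both sexes, were kept on a C57/BL6J background. The transgene places GFP under the promoter of Aldh1l1, a folate enzyme gene used as an astrocyte marker, so a cell entered the sort by its GFP and not by its granule lineage. The comparison of ages asks how the level of these factors in the sorted cells changed during the first 4 postnatal weeks.

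Granule neurons arise from the rhombic lip, where Atoh1 sets the fate of glutamatergic cerebellar cells. After birth their precursors divide in the external granule layer under Sonic hedgehog (Shh) from Purkinje cells, with Mycn among the genes that Shh drives. Cells that leave the cycle switch off Atoh1, switch on Neurod1, migrate inwards past Bergmann glia and mature in the internal granule layer.

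The labels call the sorted cells astrocytes. Of 12 astrocyte markers, none was at 0 at any age, and their summed normalized read counts lay between 70481 and 85795 in the P1 libraries and between 31696 and 59956 in the P7 libraries, and were higher later, between 156468 and 200161 at P14 and between 365061 and 429268 at P28. The glutamate transporter gene Slc1a3 averaged 16707, 10471, 59641 and 121507 normalized read counts at the 4 ages. Aldh1l1, whose promoter drives the GFP, took another course, with means of 5008, 1470, 1879 and 2921 and thus its highest at P1. Markers of other cells were present as well: summed counts of 15 mature granule neuron genes reached 35653 to 67986 at P14, and 10 oligodendrocyte lineage genes reached 308427 to 368818 there. Libraries of P1 held 11478899 to 14733985 reads on genes, those of P7 6399499 to 11328604, those of P14 9470510 to 9856910 and those of P28 7965152 to 10269334. A pair of libraries differed from their group in endothelial genes. The sum of 5 such genes was 2826 in P1 replicate 2, against 583 and 794 in the other P1 libraries, and 6889 in P7 replicate 2, against 1764 and 1136. P7 replicate 2 also had the lowest depth and the lowest astrocyte sum of all 12 libraries. In sorted populations, fewer cells of a type and less RNA per cell cannot be told apart.

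Atoh1, Neurod1, Neurod2 and Nhlh1 encode basic helix-loop-helix proteins, a class that binds the E-box, CANNTG. The 250 bases before the transcription start of these 4 genes, and of the BarH-like pair Barhl1 and Barhl2, are shown so that the windows of genes with unlike time courses can be compared. Sequences and starts are from RefSeq on GRCm38.p6, written 5′ to 3′ on the strand of the gene, with each CANNTG in capitals.
Atoh1: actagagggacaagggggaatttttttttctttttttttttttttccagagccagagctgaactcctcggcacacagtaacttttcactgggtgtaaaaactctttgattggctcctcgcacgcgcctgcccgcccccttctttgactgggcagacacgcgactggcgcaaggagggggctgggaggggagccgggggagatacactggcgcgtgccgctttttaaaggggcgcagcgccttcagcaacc
Nhlh1: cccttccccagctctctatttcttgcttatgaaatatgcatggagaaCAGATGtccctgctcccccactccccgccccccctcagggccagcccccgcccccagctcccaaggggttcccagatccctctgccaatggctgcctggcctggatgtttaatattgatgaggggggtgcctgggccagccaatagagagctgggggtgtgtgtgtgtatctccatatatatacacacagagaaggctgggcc
Neurod1: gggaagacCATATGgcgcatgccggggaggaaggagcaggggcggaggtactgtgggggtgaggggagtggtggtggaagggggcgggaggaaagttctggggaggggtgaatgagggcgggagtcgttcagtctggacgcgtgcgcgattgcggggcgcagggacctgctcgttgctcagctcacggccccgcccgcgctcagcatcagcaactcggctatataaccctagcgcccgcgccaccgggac
Neurod2: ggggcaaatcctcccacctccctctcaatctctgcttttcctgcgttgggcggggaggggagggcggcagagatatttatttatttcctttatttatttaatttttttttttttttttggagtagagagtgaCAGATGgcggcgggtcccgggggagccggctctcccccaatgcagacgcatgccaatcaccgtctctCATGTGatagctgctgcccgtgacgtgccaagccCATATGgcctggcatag
Barhl1: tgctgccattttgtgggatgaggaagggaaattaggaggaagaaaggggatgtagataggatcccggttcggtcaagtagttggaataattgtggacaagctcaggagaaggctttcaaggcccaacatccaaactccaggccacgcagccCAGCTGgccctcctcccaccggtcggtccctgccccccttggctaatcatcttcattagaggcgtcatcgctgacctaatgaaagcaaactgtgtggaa
Barhl2: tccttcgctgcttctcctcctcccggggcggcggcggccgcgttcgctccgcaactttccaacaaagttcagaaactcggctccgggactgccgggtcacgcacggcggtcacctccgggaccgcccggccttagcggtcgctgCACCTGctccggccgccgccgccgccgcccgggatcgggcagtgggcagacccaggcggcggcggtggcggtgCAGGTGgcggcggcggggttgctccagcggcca
The windows lie at chr6:64728875-64729124 on the plus strand for Atoh1 and, all on the minus strand, at chr1:172057597-172057846 for Nhlh1, chr2:79456637-79456886 for Neurod1, chr11:98329646-98329895 for Neurod2, chr2:28916669-28916918 for Barhl1 and chr5:106458167-106458416 for Barhl2.

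No CANNTG stood in the Atoh1 window. The Nhlh1 window held CAGATG. Neurod1 had CATATG at the far end of its window. Neurod2 had 3 E-boxes, with a CAGATG farthest from the start. Barhl1 had CAGCTG in this window and again in a second window at an inner start, and Barhl2 had CACCTG and CAGGTG. Promoter windows were found for 9 of the 10 genes, Insm1 being the exception, with 12 windows in all because Barhl1, Pax6 and Etv1 had a second start. CANNTG occurred in 9 of these 12 windows and in 66.2% of the 32851 windows of all genes, so that its presence was no feature of these genes. CAGCTG was found in 13.0% of all windows. CAGATG was found, read on either strand, in 14.4%. CACGTG, the word that Myc proteins bind, was in 6.02% of all windows and in 0 of the member windows. CANNTG contains each of the other words. These matches describe letters only and do not show binding.

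Over the whole course, 7 of the 10 genes had their highest mean at P7, where 26.5% of all tested genes did. Neurod1 and Etv1 were highest at P14, as were 19.8% of all genes. Barhl2 was highest at P28, as were 31.1% of all genes, with nearly the same mean at P14. Of the 10, 0 were highest at P1, against 22.6% of all genes. Between P1 and P7, 6 of the 10 rose, 1 fell and 3 did not pass the test, which was limma on log2(normalized read count + 1) with adjusted p-values over all tested genes and a threshold of 0.05. Of all genes, 3.47% rose and 4.24% fell in this step, 536 and 655 genes, or as few as 276 and 363 with a library left out. The median log2 fold change was 2.38 for the 10 genes and 0.037 for all genes. Libraries of the 2 ages did not overlap for 9 of the 10, nor for 38.3% of all genes. Between P7 and P14, 1 of the 10 rose and 4 fell, against 10.8% and 10.0% of all genes, and the medians were -1.68 and -0.086. Again 9 of the 10 did not overlap, against 46.1% of all genes. At an unadjusted p under 0.05 with a log2 fold change over 0.75, Barhl2 joined Etv1 as a rise, where 13.1% of all genes rose. Between P14 and P28, 4 fell and 0 rose by limma, with 8.76% and 5.68% of all genes. The medians of this step were -1.55 and -0.12, and 5 of the 10 did not overlap, against 26.1% of all genes. The count of 0 was the same with edgeR, with DESeq2 and at the unadjusted threshold, which 7.83% of all genes passed. From P1 to P28, 3 of the 10 were higher and 5 lower, where 14.6% and 20.0% of all genes were, and 7 of the 10 did not overlap, against 41.9% of all genes. Scaling by library totals alone turned the balance of all genes towards falls, with 1203 rises and 2451 falls from P7 to P14 in place of 1676 and 1551, 456 and 1938 from P14 to P28 in place of 878 and 1354, and 1369 and 5133 from P1 to P28 in place of 2264 and 3086.

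**Figure D1:**
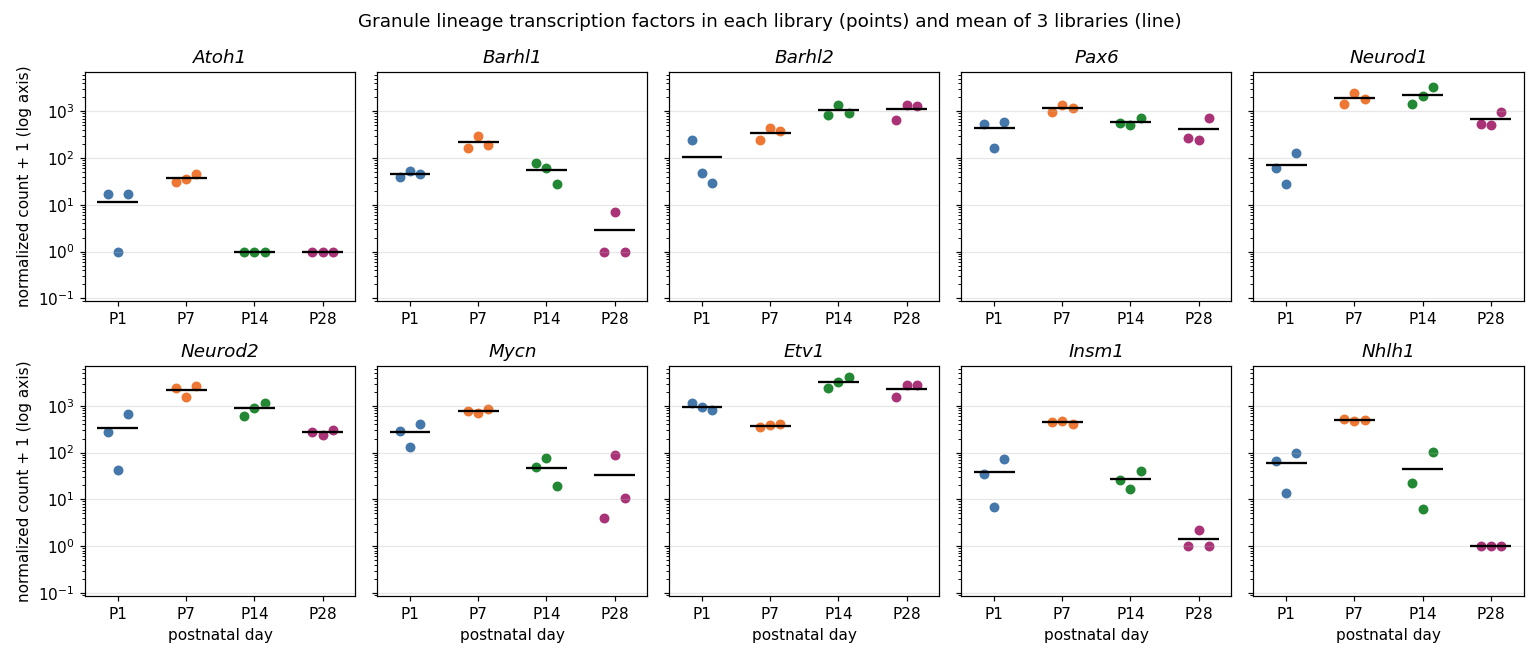
Normalized read count + 1 (log axis) of each of the 10 genes in the 12 libraries, by postnatal day; points are libraries and lines the means of 3 libraries. Insm1 and Nhlh1 stood between 405 and 518 in every P7 library and at or near 0 at P28, while Barhl2 and Etv1 were above 650 in every library at P14 and P28.

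Atoh1, which specifies granule precursors, is a gene on chromosome 6 (chr6:64729125-64731245 on the plus strand, GRCm38, ENSMUSG00000073043). Its normalized read counts were 16.0, 0 and 15.9 at P1 and 30.3, 34.0 and 45.0 at P7. The 3 libraries at P14 and the 3 at P28 held no Atoh1 read. Every P7 library was above every other library, and P1 replicate 2 was like the later ages in having no read.

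The fall from P7 to P14 was at least 11.4-fold, computed from the 122 reads at P7 against a floor of 3 reads in each P14 library, which is the most that a count of 0 allows at 95% confidence when only counting error is considered. limma gave an adjusted p of 0.00192 for this step. The mean rise from 10.6 ± 9.21 at P1 to 36.4 ± 7.64 at P7 (SD, n = 3 each) did not pass, with a log2 fold change of 2.48 ± 1.00 (SE) and a limma adjusted p of 0.173. Against a floor of 3 reads in each P28 library, the P1 mean was at least 2.66-fold above P28, a bound that leaves out the spread of the P1 libraries. That P1 mean of 10.6 was 7.95 without P1 replicate 1 and 8.00 without P1 replicate 3. The difference between P1 and P28 passed narrowly at a limma adjusted p of 0.0484. It was lost when any of 11 libraries was left out, all but P1 replicate 2, the library with no read, without which it had an adjusted p of 0.00193. With each library left out in turn the limma adjusted p ranged from 0.00193 to 0.190. At these counts, Atoh1 was not detectable after P7, which does not show that it was absent.

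Mycn, the Myc family factor that Shh induces in dividing precursors, lies at chr12:12936093-12941914 on the minus strand (GRCm38). It counted 289, 129 and 401 at P1 and 779, 691 and 860 at P7. At P14 it was 47.7, 74.1 and 18.5, and at P28 it was 2.92, 86.1 and 9.47. All P7 libraries were above all P1 libraries, and all P1 libraries were above all later ones, while P14 and P28 overlapped.

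Mycn fell 16.6-fold in its mean from P7 to P14 (776 ± 84.3 to 46.7 ± 27.8, SD, n = 3 each), with a log2 fold change of -4.22 ± 0.88 (SE) and a limma adjusted p of 0.00337. The rise from 273 ± 137 at P1 to its P7 level did not pass, although the libraries did not overlap, with a log2 fold change of 1.65 ± 0.88 and a limma adjusted p of 0.352. From P14 to P28 the log2 fold change was -1.44 and did not pass. P28 replicate 2, the library with 73 of the Mycn reads at that age, decided this, since without it the change was -2.69 and passed.

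Barhl1 and Barhl2 encode BarH-like homeodomain factors, both of which act downstream of Atoh1 in the rhombic lip lineage. Barhl1 (chr2:28907679-28916668, minus strand, GRCm38) counted 38.8, 52.2 and 45.4 at P1, then 161, 297 and 191 at P7. At P14 it counted 77.3, 60.3 and 27.1, and at P28 its only reads were 5 in replicate 2, where the value was 5.90. The P7 libraries were the highest and the P28 libraries the lowest, and P1 and P14 overlapped.

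Of the Barhl1 steps, the last passed the test, with a mean that fell 27.9-fold from 54.9 ± 25.5 at P14 to 1.97 ± 3.40 at P28 (SD, n = 3 each) and a limma adjusted p of 0.00206. P28 replicate 2 held the only reads of that age, and without it the fitted log2 fold change was -5.68. The earlier steps showed a log2 fold change of 2.19 ± 0.79 (SE) from P1 to P7 and of -2.03 ± 0.79 from P7 to P14, with limma adjusted p-values of 0.124 and 0.0865. Both passed when P28 replicate 2 was left out of the shared fit.

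Barhl2 (chr5:106452523-106458166, minus strand, GRCm38) took a different course from its paralog. It counted 241, 47.9 and 28.8 at P1 and 238, 440 and 375 at P7. At P14 the libraries held 829, 1399 and 909, and at P28 they held 658, 1335 and 1324. All P14 and P28 libraries lay above all earlier ones, with no gap between P14 and P28.

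Barhl2 was 10.4-fold higher in its mean at P28 than at P1 (1106 ± 388 against 106 ± 118, SD, n = 3 each), with a log2 fold change of 3.90 ± 0.58 (SE) and a limma adjusted p of 0.000151. It was 4.79 on the log2 scale without P1 replicate 1 and 3.27 without P1 replicate 3. The rise from P1 to P7 passed, with a log2 fold change of 2.27 ± 0.58 and a limma adjusted p of 0.0271, although P1 replicate 1 with 241 was above the lowest P7 library with 238. This call was lost without P1 replicate 2, P1 replicate 3, P7 replicate 2 or P7 replicate 3, and the log2 fold change ran from 1.65 without P1 replicate 3 to 3.16 without P1 replicate 1. The step from P7 to P14 did not pass, with a log2 fold change of 1.58 and a limma adjusted p of 0.0697, but it passed without P1 replicate 1 or P1 replicate 3. The P28 and P14 levels did not differ beyond their spread, and the 95% interval of their log2 fold change ran from -1.20 to 1.29.

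The log2 ratio of Barhl2 to Barhl1 within a library, with 1 added to both values, was 2.61, -0.12 and -0.64 at P1 and 0.56, 0.56 and 0.97 at P7. It reached 3.41, 4.51 and 5.01 at P14, above every P1 and P7 value, while P1 and P7 overlapped. At P28 replicate 2 had 7.60, from 5 Barhl1 reads, and the other libraries had no Barhl1 read. Against a floor of 3 reads, their log2 ratios were at least 7.23 and at least 8.35.

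Pax6, a paired-box factor kept from precursor to mature granule neuron, lies at chr2:105668900-105697364 on the plus strand (GRCm38). It overlaps the antisense gene Pax6os1, whose means were 1.72, 19.3, 17.7 and 10.2 normalized read counts at the 4 ages, and whether the counting used strand is not given in the sources used here. Pax6 counted 547, 161 and 579 at P1 and 944, 1349 and 1196 at P7. It then counted 572, 504 and 733 at P14 and 269, 241 and 732 at P28. The P7 libraries stood above all others, and the other 3 ages overlapped.

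Pax6 rose 2.71-fold in its mean from P1 to P7, with a log2 fold change of 1.63 ± 0.47 (SE) and a limma adjusted p of 0.0462. The call was lost when any P7 or P14 library, P1 replicate 1 or P1 replicate 2 was left out. P1 replicate 2, with 161, moved the value most, and the log2 fold change without it was 1.03. The decline from P7 to P28 passed at a limma adjusted p of 0.0113 with a log2 fold change of -1.67 ± 0.47. Neither step between these ages passed. P28 and P1 did not differ beyond their spread, with a 95% interval of -1.03 to 0.96 for the log2 fold change.

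Insm1, a zinc-finger factor of neural progenitors about to leave the cycle, and Nhlh1, a helix-loop-helix factor of newly postmitotic neurons, followed the same order of means, P7, P1, P14 and P28. Insm1 (chr2:146221921-146225020, plus strand, GRCm38) counted 33.8, 5.72 and 71.2 at P1 and 461, 479 and 405 at P7. At P14 it counted 24.4, 15.9 and 39.1, and a single read in replicate 2, a value of 1.18, was all that P28 held. P7 stood alone at the top and P28 at the bottom, and P1 and P14 overlapped.

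Insm1 rose 12.2-fold in its mean from P1 (36.9 ± 32.8) to P7 (448 ± 38.4, SD, n = 3 each), with a log2 fold change of 4.13 ± 0.84 (SE) and a limma adjusted p of 0.00696. It then fell 17.0-fold to 26.4 ± 11.8 at P14, with a limma adjusted p of 0.00278. The fall from P14 to P28 passed at a limma adjusted p of 0.00487, and the ratio of reads, 74 against 1, was 59.8 after scaling with a 95% counting interval of 10.4 to 2394. These 3 calls held with each library left out, but the log2 fold change from P1 to P7 was 3.16 without P1 replicate 2 and 4.87 without P1 replicate 3.

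Nhlh1 (chr1:172052292-172057573, minus strand, GRCm38) counted 65.2, 12.9 and 96.2 at P1 and 518, 484 and 500 at P7. At P14 the values were 21.2, 5.29 and 103, and no read was found at P28. As with Insm1, only P1 and P14 overlapped.

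Nhlh1 rose 8.62-fold in its mean from P1 to P7, with a log2 fold change of 3.49 ± 0.96 (SE) and a limma adjusted p of 0.0392. The call was lost without P14 replicate 1, P1 replicate 1, P1 replicate 2 or any P7 library, and without P1 replicate 2, which had 12.9, the log2 fold change was 2.64. Nhlh1 fell 11.6-fold from 501 ± 17.1 at P7 to 43.2 ± 52.5 at P14 (SD, n = 3 each), with a limma adjusted p of 0.00464. P14 replicate 3 held most of the P14 reads, and the fall was 37.8-fold without it. From P14 to P28 it fell at least 10.8-fold against the floor of 3 reads per library, with a limma adjusted p of 0.00695. Without P14 replicate 3 this bound was 3.31-fold. The call was lost with a pseudocount of 10 and when only the libraries of P14 and P28 entered the fit.

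Neurod1, a helix-loop-helix factor needed for granule neuron differentiation and survival, lies at chr2:79452521-79456751 on the minus strand (GRCm38). The locus overlaps Cerkl on the same strand, which averaged 2.42, 40.2, 12.6 and 1.35 normalized read counts at the 4 ages. Neurod1 counted 59.1, 26.4 and 126 at P1 and 1413, 2519 and 1853 at P7. It counted 1442, 2102 and 3272 at P14 and 535, 511 and 978 at P28. Every P7 and P14 library was above every P28 library, and every P28 library was above every P1 library, while P7 and P14 overlapped.

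Neurod1 rose 27.3-fold in its mean from P1 (70.7 ± 51.0) to P7 (1929 ± 557, SD, n = 3 each). Its log2 fold change of 4.98 ± 0.47 (SE) was the largest rise among the 10 genes in that step, with a limma adjusted p of 3.25e-05. From P7 to P14 the log2 fold change was 0.20 with a 95% interval of -0.80 to 1.19 and did not pass. It fell 3.37-fold from 2272 ± 927 at P14 to 674 ± 263 at P28, a log2 fold change of -1.74 ± 0.47 with a limma adjusted p of 0.0237. That call was lost without P14 replicate 2, P14 replicate 3, P28 replicate 1 or P28 replicate 2, and P14 replicate 3, with 3272, moved it most, to a log2 fold change of -1.43. Against P1, Neurod1 was still 9.55-fold higher at P28, with a limma adjusted p of 6.50e-05.

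Neurod2, a close relative that acts in maturing neurons, lies at chr11:98325415-98329648 on the minus strand (GRCm38). It counted 281, 41.4 and 658 at P1 and 2452, 1551 and 2625 at P7. At P14 it counted 608, 919 and 1150, and at P28 it counted 275, 238 and 302. The P7 libraries were above all P14 libraries and these above all P28 libraries, whereas the P1 libraries spanned from below P28 to within P14.

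Neurod2 rose 6.76-fold in its mean from P1 (327 ± 311) to P7 (2209 ± 576, SD, n = 3 each), with a log2 fold change of 3.44 ± 0.67 (SE) and a limma adjusted p of 0.00546. The call held with each library left out, but the log2 fold change was 2.32 without P1 replicate 2 and 4.30 without P1 replicate 3. Its later steps did not pass, with log2 fold changes of -1.32 and -1.67 and limma adjusted p-values of 0.197 and 0.111. Both passed without P1 replicate 2. The fall from P7 to P28 as a whole passed, with a log2 fold change of -2.99 ± 0.67 and a limma adjusted p of 0.00296.

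The log2 ratio of Neurod1 to Neurod2 within a library averaged -1.74 ± 0.97 at P1 and -0.20 ± 0.79 at P7, and then 1.32 ± 0.17 at P14 and 1.25 ± 0.39 at P28 (SD, n = 3 each). The log2 ratio of Neurod1 to Atoh1, which sets the gene of differentiating cells against that of precursors, was 1.82, 4.78 and 2.91 at P1 and 5.50, 6.17 and 5.33 at P7. It was 10.5, 11.0 and 11.7 at P14 and 9.07, 9.0 and 9.93 at P28. Atoh1 had no read in P1 replicate 2, which gave the 4.78, or in any P14 or P28 library, and these values follow the pseudocount of 1. Against a floor of 3 Atoh1 reads, the log2 ratios were at least 3.62 in P1 replicate 2, at least 8.83 in every P14 library and at least 6.93 in every P28 library. As lower bounds only, these cannot rank P14 against P28. With 1 added, the P7 mean exceeded the P1 mean by 2.5 and the P14 mean exceeded the P7 mean by 5.40. A two-sided exact permutation test gave p = 0.1 for each, the smallest that 3 against 3 libraries allow. The bound of P1 replicate 2 does not place it below the P7 libraries, so the result for P1 against P7 follows the added 1. Every P14 bound lay above every P7 value.

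**Figure D2:**
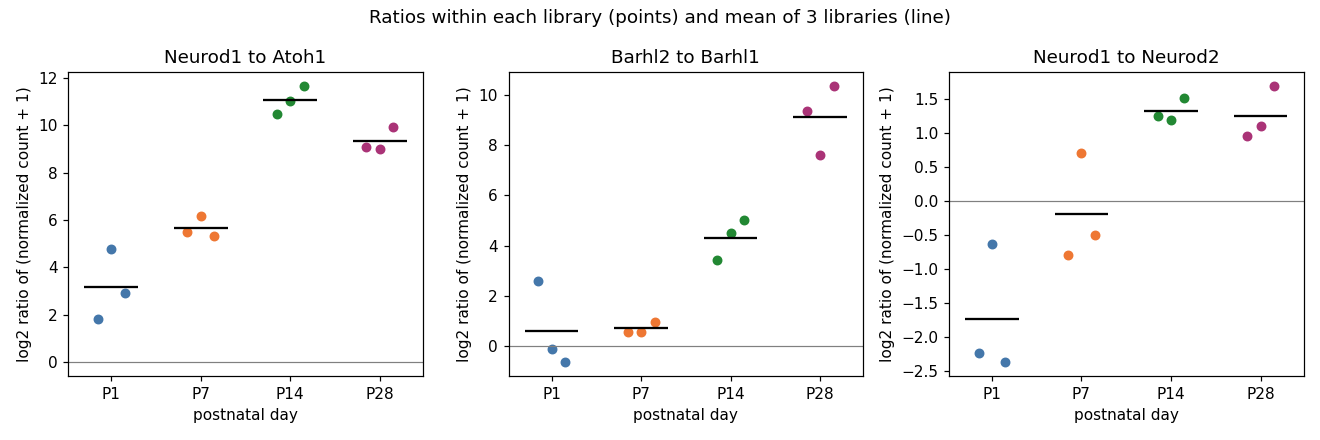
Log2 ratio of (normalized read count + 1) within each library for Neurod1 to Atoh1, Barhl2 to Barhl1 and Neurod1 to Neurod2, by postnatal day; points are libraries, lines are means of 3 libraries and the grey line marks equal values. Values for libraries with no read of the second gene follow the added 1: for Atoh1, P1 replicate 2 and all of P14 and P28, and for Barhl1, P28 replicates 1 and 3. The Barhl2 to Barhl1 ratio was at most 0.97 at P7 and at least 3.41 at P14.

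Etv1, an ETS factor found in maturing granule neurons, lies at chr12:38779380-38870484 on the plus strand (GRCm38) and was the only one of the 10 genes to fall from P1 to P7. It counted 1148, 925 and 801 at P1 and 347, 389 and 398 at P7. At P14 it counted 2396, 3167 and 4178, and at P28 it counted 1507, 2765 and 2721. The P7 libraries were the lowest and the P1 libraries next, and P14 and P28 overlapped above them.

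The Etv1 mean fell 2.53-fold from 958 ± 176 at P1 to 378 ± 27.2 at P7 (SD, n = 3 each), with a log2 fold change of -1.33 ± 0.25 (SE) and a limma adjusted p of 0.00488. It then rose 8.59-fold to 3247 ± 894 at P14, with a log2 fold change of 3.06 ± 0.25 and a limma adjusted p of 1.94e-06, and was the single member to rise in that step. P28 was 2.43-fold above P1, with a limma adjusted p of 0.00180. These calls held under every alternative tried. The step from P14 to P28 did not pass, with a log2 fold change of -0.49 and a 95% interval of -1.04 to 0.05.

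**Figure D3:**
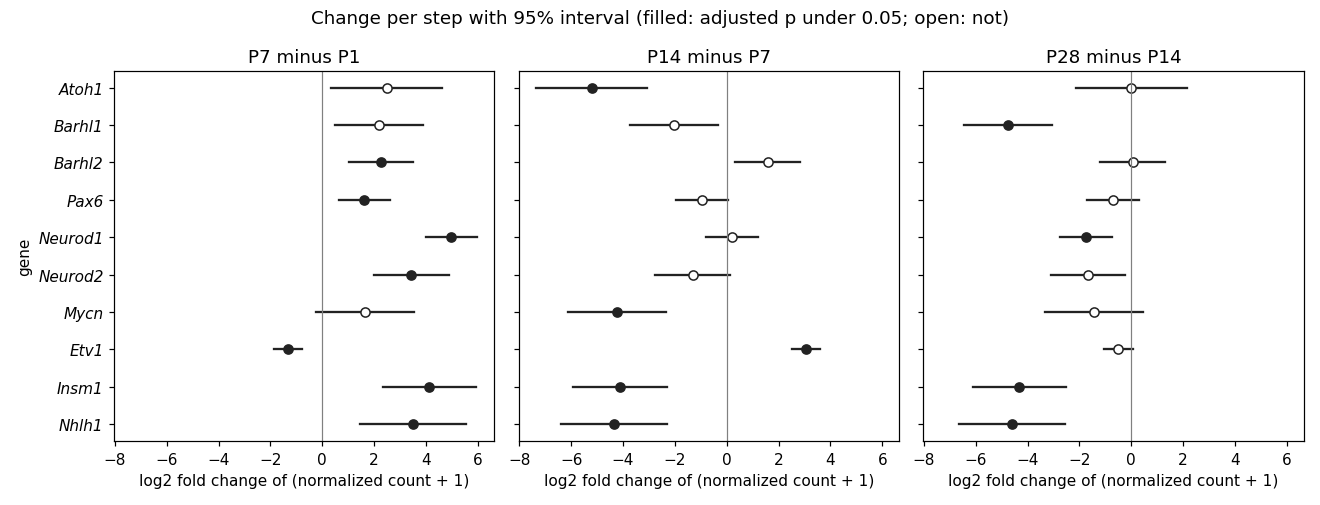
Log2 fold change of (normalized read count + 1) for the 10 genes in each step between consecutive ages, with 95% intervals from limma; filled points had an adjusted p under 0.05. From P7 to P14, Etv1 is the filled point on the right at 3.06, and Atoh1, Mycn, Insm1 and Nhlh1 are the filled points on the left, between -5.21 and -4.12. The Atoh1 value of -5.21 follows the added 1, since P14 held no Atoh1 read, and ran from -8.49 to -2.20 in other settings with all libraries.

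To set the levels of the 10 genes beside each other, normalized read counts were divided by length in kilobases, and the order depended on which length was used. The lengths tried were all exons of a gene merged and, as alternatives chosen after seeing the data, the longest and the median coding transcript. Etv1 and Pax6, with many exons and several transcripts, moved most between them: Etv1 at P1 had 72.0 normalized read counts per kilobase of merged exons, 146 per kilobase of its longest transcript and 556 per kilobase of its median transcript. Under all 3 lengths, Neurod1 and Neurod2 led at P7, with 707 and 703 per kilobase. Atoh1 was the lowest of the 10 at P1 and P7 under all 3, with 5.01 and 17.2 per kilobase. At P14, Neurod1 had 833 per kilobase and Barhl2 452, and at P28 Barhl2 had 478 and Neurod1 247, values that did not change with the length, since these genes have a single coding transcript. Etv1 stood below Neurod1 at P14 and below Barhl2 at P28 by merged exons and by its longest transcript, and above both by its median transcript. Aldh1l1 averaged 325 per kilobase of merged exons at P7 and at most 482 under the other lengths, below Neurod1 and Neurod2. These orders are descriptions and were not tested between genes.

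Of all 6 pairs of ages, P7 against P28 separated the genes most fully. All 10 passed the test, 8 being lower and 2, Barhl2 and Etv1, higher at P28, where 23.0% and 16.2% of all genes were. Libraries of these ages did not overlap for any of the 10, nor for 48.3% of all genes. Between P1 and P14, Neurod1, Neurod2, Barhl2 and Etv1 were higher at P14, and the other 6 did not pass. Of all genes, 10.4% were higher and 9.99% lower. Libraries of P1 and P14 did not overlap for 4 of the 10, nor for 41.8% of all genes. For P7 against P28 and for P1 against P14, the calls of the 10 genes were not checked with other methods or with a library left out. Among adjacent ages in the order of each gene's levels, no pair passed for Atoh1, Mycn or Pax6.

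P1 replicate 2 was the lowest P1 library for 7 of the 10 genes, while it was the lowest for 35.9% of all tested genes. Its higher endothelial sum is given above, and the part of that difference in the P1 values was not tested. Leaving it out ended the calls of Barhl2, Pax6 and Nhlh1 from P1 to P7 and left 3 of 6 rises, those of Neurod1, Neurod2 and Insm1.

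Other genes that act in the lineage were grouped in lists. These genes, such as those of proliferation, are not limited to granule cells. Which of the sorted cells held their reads was not tested. Of the 11 precursor and Shh genes, 3, 5 and 3 were called in the 3 steps, in either direction, against 7.70%, 20.9% and 14.4% of all genes. From P1 to P7, Hhip, a decoy receptor for hedgehog, rose, and the receptors Ptch1 and Smo fell. The Hhip call was lost when any of 7 libraries was left out, and the count of falls was 1 without any P1 or P7 library. From P7 to P14, Ptch1 and Gli1, both induced by Shh signaling, rose, while Ccnd2, Meis1 and Sfrp1 fell. From P14 to P28, Gli2 and Ptch1 rose and Ccnd1 fell. The Ccnd1 fall was lost without P14 replicate 1, P14 replicate 2 or P28 replicate 2, and 1 rise was left without P14 replicate 2 or P14 replicate 3. The medians of the 3 steps were -0.31, -0.15 and -0.07, against 0.037, -0.086 and -0.12 for all genes.

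Ptch1 and Ccnd2 were the most abundant of the precursor and Shh list. Ptch1, the Shh receptor, had log2 fold changes of -1.14, 1.49 and 1.24 in the 3 steps, with limma adjusted p-values of 0.00238, 8.51e-05 and 0.00148. Ccnd2, a cyclin of granule precursors, fell by 4.08 on the log2 scale from P7 to P14, with a limma adjusted p of 5.54e-06, and had 1.13 and -0.15 in the other steps, which did not pass. Ptch1 and Mycn, both Shh targets, thus moved in opposite directions from P7 to P14.

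Among 13 genes of migrating and differentiating granule neurons, 7 rose from P1 to P7 and 1, Astn1, fell, against 3.47% and 4.24% of all genes. The median log2 fold change was 1.63, against 0.037 for all genes. From P7 to P14, 2 rose and 7 fell, against 10.8% and 10.0% of all genes, with medians of -0.84 and -0.086. From P14 to P28, 3 rose and 8 fell, against 5.68% and 8.76% of all genes, with medians of -1.52 and -0.12. The 2 that rose from P7 to P14 were the adhesion genes Nrcam and Cntn1, which are also the most abundant of the list and rose again from P14 to P28, by 1.00 and 0.93 on the log2 scale. Of these 2 rises from P7 to P14, 1 was left without P7 replicate 2 or P14 replicate 2.

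The 15 genes of mature granule neurons changed mostly between P7 and P14. In that step 14 rose, against 10.8% of all genes, and the other, Kcnk9, did not pass. The median log2 fold change was 3.61, against -0.086 for all genes. Before that, 6 had risen and 1, Kcnd2, had fallen from P1 to P7, against 3.47% and 4.24% of all genes. The Kcnd2 fall was joined by another when P1 replicate 1 was left out. From P14 to P28, Kcnd2, Kcnk9, Rbfox3 and Vsnl1 fell, where 8.76% of all genes did. Snap25, a synaptic vesicle fusion gene, averaged 21594 at P14, where the mean sum of the 15 genes was 48744. It had log2 fold changes of 1.70, 3.18 and -0.72 in the 3 steps, the last not passing. Fat2, a granule neuron cadherin, had 2.64, 2.71 and -0.79, the last not passing either. Gabra6, the receptor subunit of mature granule neurons, had no read at P1 and averaged 37.3, 2305 and 894 at the later ages.

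Proliferation genes, 12 in the list, fell as a whole list from P7 to P14. Only Top2a rose from P1 to P7, a call lost without either of P1 replicates 1 and 2 or any P7 library, and all 12 fell from P7 to P14, with a median log2 fold change of -4.56. From P14 to P28, 8 fell, or 5 without P14 replicate 1. Of all genes, 3.47% rose from P1 to P7, 10.0% fell from P7 to P14 and 8.76% fell from P14 to P28. Mki67 fell by 4.93 and Top2a by 4.50 on the log2 scale from P7 to P14, with limma adjusted p-values of 1.16e-06 and 1.23e-07. The summed level ranged from 23311 to 29225 at P7, from 1498 to 2069 at P14 and from 619 to 986 at P28, where Cdk1 was at 0.

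**Figure D4:**
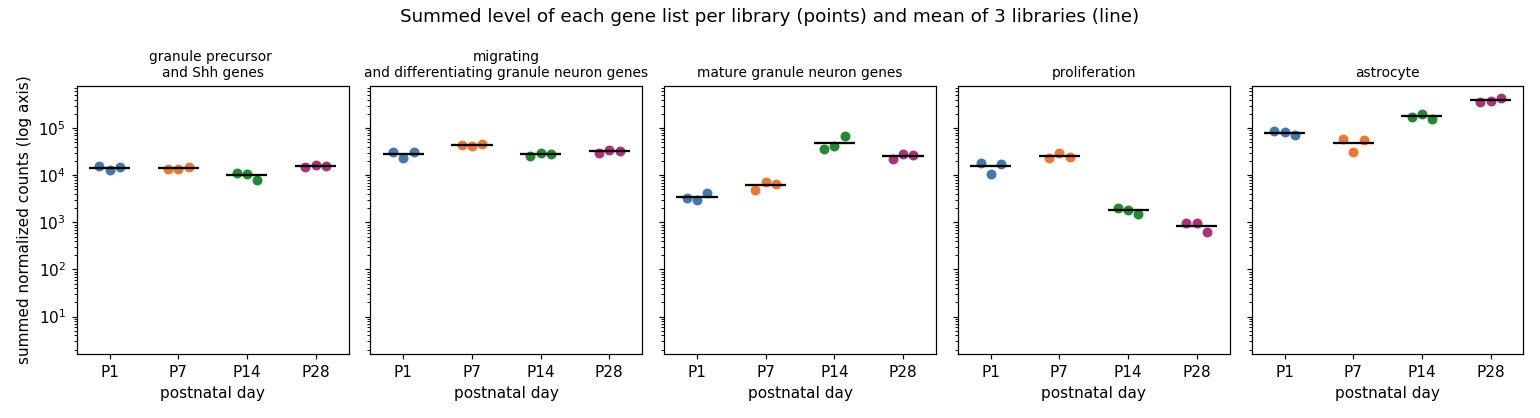
Summed normalized read counts (log axis) of 5 gene lists in each of the 12 libraries by postnatal day; points are libraries and lines the means of 3 libraries. The proliferation sum fell from at least 23311 at P7 to at most 2069 at P14, while the mature granule neuron sum rose from at most 7033 to at least 35653.

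Markers of the cells from which granule lineage reads would have to be told apart also moved with age. The sum of 12 genes of the GABAergic interneuron lineage lay between 1387 and 6537 in P1 libraries and between 7675 and 16552 in P7 libraries, then between 647 and 759 at P14 and between 557 and 1220 at P28, and of its defining factors Ptf1a and Prdm13 were at 0 at P14. From P7 to P14, 11 of these 12 fell, against 10.0% of all genes. The 5 unipolar brush cell genes, taken as markers of the other glutamatergic interneurons of the rhombic lip, summed to between 800 and 1442 at P7 and between 729 and 1416 at P14. Otx2 made up most of the sum, with means of 796 and 672 within mean sums of 1052 and 989. Eomes averaged 27.6 at P1, 141 at P7 and 154 at P14. Its rise from P1 to P7 passed at a limma adjusted p of 0.0491, and the other 4 genes did not pass in that step. The sum of 10 oligodendrocyte lineage genes averaged 28083 at P7, 338431 at P14, above the astrocyte sum of that age, and 127537 at P28. The sum of 8 Purkinje cell genes, of which Rora and Itpr1 were the most abundant, lay between 4150 and 4498 at P7 and between 3713 and 4256 at P14. This sum hid changes of single genes. Of the 7 that could be tested, Pcp2 and Pvalb rose from P7 to P14, Foxp2 fell and 4 did not pass. Of all genes, 10.8% rose and 10.0% fell in that step. Of 12 astrocyte markers, 2 rose and 6, Aldh1l1 among them, fell from P1 to P7, against 3.47% and 4.24% of all genes. From P7 to P14, 9 of these markers rose and 1, Fabp7, fell, against 10.8% and 10.0% of all genes. The parts of these cell types in the levels of the 10 factors were not tested.

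Genes nearest to 3 of the factors were found by Pearson correlation of log2(normalized read count + 1) over the 12 libraries, which share ages, depth and cell mixture, and are given as a description. Nearest to Atoh1 were Prdm13, Ptf1a and Neurog2, with r of 0.986, 0.978 and 0.972. These are proneural or patterning factors, and like Atoh1 they had their highest mean at P7, with means of 402, 82.7 and 214, and means under 1 at P14 and P28. Prdm13 and Ptf1a are also in the list of the GABAergic interneuron lineage above. Nearest to Neurod1 were Stxbp5l, Cntn2 and Ppp2r2c, with r of 0.965, 0.964 and 0.962, of which Cntn2 is an adhesion gene of premigratory granule neurons. Nearest to Etv1 were Fgf14, Gde1 and Cadm2, with r of 0.977, 0.973 and 0.973, and all 3 had, like Etv1, their lowest mean at P7.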

How the data were processed

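The 12 libraries were grouped by the age in the labels, with 3 per age. Per the labels and the study's methods, RNA was extracted with an RNeasy Micro kit and libraries were made with the Trio RNASeq system. The methods name total RNA as the input of the libraries. Reads were aligned to mm10 with STAR (version 2.5.0a), counted per gene and normalized with DESeq2, for which the submitters' processing notes and the methods give different versions. The values the authors deposited are a signal, read counts divided by a size factor per library, and every value was a whole multiple of its library's step, so that whole reads were recovered for 100% of the values (tolerance 0.01 read). Column names carry P28 at every age, and columns were matched to libraries through the labels, with 0 left unused.

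limma (version 3.58.1, R 4.3.3) was fitted with a variance trend to log2(value + 1), with a mean per age over all 12 libraries, for the 15464 genes whose value reached 10 or more in 3 or more libraries. A Benjamini-Hochberg adjusted p under 0.05 over all of them made a call. Nothing in the labels says that replicates came from separate animals, so p-values measure the spread between these libraries. Replicates of an age correlated at 0.849 to 0.965 over 12 pairs, and none was a duplicate. edgeR (version 4.0.16), DESeq2 (version 1.42.0) on recovered reads, other scalings, filters, pseudocounts and thresholds, a replicate block and the omission of each library were alternatives. The tests were checked on simulated data. Gene positions are those of GENCODE M21 (GRCm38, the same assembly as mm10). E-boxes were searched on both strands of RefSeq promoter windows. All 10 factors are named, with the 2 most abundant genes of each granule lineage and proliferation list, genes behind counts of 5 or fewer calls in those lists, the astrocyte genes Aldh1l1 and Slc1a3, and the 3 nearest genes of Atoh1, Neurod1 and Etv1. Gabra6, Cdk1, Ptf1a, Prdm13, Cerkl and Pax6os1 were named after their values were seen. So were Rora, Itpr1, Pcp2, Pvalb, Foxp2, Otx2 and Eomes. The factors and lists were chosen with earlier results of these data known.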

Additional observations from a re-analysis of the deposited data

How the results depend on the processing

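Of 24 calls among the 10 genes in the 3 steps and from P1 to P28, 18 were kept under all alternatives that could test them, 6 were lost under at least 1 and 0 changed direction. The 6 were Barhl2, Pax6 and Nhlh1 from P1 to P7, Neurod1 and Nhlh1 from P14 to P28, and Atoh1 from P1 to P28. The count of 6 rises from P1 to P7 was 3 with edgeR, 4 with a pseudocount of 0.1 or no filter, 7 with a pseudocount of 10 or DESeq2, 8 with only the ages compared or at the unadjusted threshold, and 3 to 7 with a library left out. Counts over all genes moved as well. In place of 536 rises there were 489 with edgeR, 484 with a pseudocount of 0.1 and 607 with a pseudocount of 10. With only the ages compared there were 1349, and with a library left out 276 to 709. No filter gave 520 and DESeq2 843, both among 20205 genes. The count of 1 rise from P7 to P14 was 2 with a pseudocount of 10, with DESeq2, with only the ages compared and at the unadjusted threshold, and 1 to 2 with a library left out, Barhl2 being the gene gained. Over all genes, the 1676 rises became 1753, 2055, 2329 and 2031 in these settings, and 1219 to 1965 with a library left out. The 4 falls of that step became 7 with only the ages compared, where the falls of all genes went from 1551 to 2442. With at least 10 reads required in every library, 5 of the 10 genes (Barhl2, Pax6, Neurod1, Neurod2 and Etv1) could be tested, and the falls were 0 from P7 to P14, 1 from P14 to P28 and 0 from P1 to P28. Of the 10911 genes tested in that setting, 1212, 647 and 1547 fell in these comparisons. Directions that turned all belonged to changes that had not passed: Neurod1 from P7 to P14 was -0.061 with library totals alone and -0.11 to 0.48 with a library left out (-0.0081 without P7 replicate 1), and Barhl2 from P14 to P28 was -0.19 with library totals and -0.13 to 0.39 with a library left out (below 0 without P14 replicates 1 or 3 or P28 replicates 2 or 3). From P1 to P28, Pax6 was -0.64 to 0.28 with a library left out (above 0 without P1 replicates 1 or 3 or P28 replicates 1 or 2), and Neurod2 was -0.24 with edgeR, -0.27 with DESeq2 and -0.67 to 1.31 with a library left out, the lowest without P1 replicate 2. The causes were not tested. Scaling by library totals alone moved the median of all genes from -0.24 to -0.66 between P1 and P28. The 18 correlations of deviations between same-numbered libraries ran from -0.029 to 0.14, with 1 over 0.1. Even so, 10 of 12 libraries were closest to their own number. These values do not decide whether replicate numbers pair the libraries, and the labels do not say. With the replicate block, 536 genes rose and 627 fell from P1 to P7, against 536 and 655, and among the 10 genes the call that changed was that of Atoh1 from P1 to P28, at a limma adjusted p of 0.0523, against a range of 0.00193 to 0.190 over its alternatives. The Neurod1 to Atoh1 ratio kept its direction from P1 to P7 and from P7 to P14. This was tried with pseudocounts of 0.1 and 10 and with each library of those ages left out. The Barhl2 to Barhl1 and Neurod1 to Neurod2 ratios were not put through alternatives. Normalized read counts under 50, as in every library for Atoh1, limited what could be shown.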
